A study of Arabidopsis thaliana with 2 samples.

Results

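The nuclear genes of plastid ribosomal proteins were examined in the aerial parts of Arabidopsis thaliana seedlings of the transgenic line GFP-TIE1-15 and of Columbia-0 wild type. The members were 39 listed nuclear loci, 13 of the small (30S) and 26 of the large (50S) plastid ribosomal subunit. The platform annotation used here named a probe set for 9 of them, out of 13286 genes with a named probe set in all, and each of the 9 had 1 probe set of its own. The other 30 loci, among them all 6 genes of plastid-specific ribosomal proteins, had no named probe set and were not analysed here. The 9 were AT1G64510 and AT3G13120 of the 30S subunit, and AT2G43030, AT4G01310, AT3G54210, AT4G17560, AT5G47190, AT5G65220 and AT1G29070 of the 50S subunit. The reference gene table lists these 9 loci without a symbol and the other 30 all with one. The 9 are thus set apart by annotation and need not stand for the 39. They are called by locus number, with the ribosomal protein each is known to encode in Arabidopsis given beside it.

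The study used 2 Affymetrix arrays, 1 of GFP-TIE1-15, which carries a GFP-TIE1 transgene, and 1 of wild type. All seedlings were 14 days old, with a day of 16 h light and 8 h dark at 22 ± 2 °C. Seeds of both genotypes had first been chilled on plates for 3 days. The labels do not give the transgene's promoter or how many plants were pooled, and the line is a single numbered one. TIE1 is known as a repressor that joins TOPLESS corepressors to TCP transcription factors of leaf development, and it had no named probe set here, so the transgene's transcript was not checked. Since each genotype had 1 array, no test could be run, values have no error, and no difference below has a replicate check. Fewer cells with active plastids and less RNA per cell cannot be told apart in such whole shoots.

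Plastids translate their own genes on ribosomes of bacterial type. Part of the proteins of these ribosomes is encoded in the plastid genome and the rest in the nucleus, from where they are imported, so that both genomes have to supply one particle. In young leaves these ribosomes make the plastid-encoded subunits of the photosystems, of the ATP synthase and of Rubisco, and loss of many of the nuclear-encoded proteins arrests the embryo or gives pale plants.

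All 9 measured genes had a slightly lower signal in GFP-TIE1-15 than in wild type on the deposited scale, by 4.77% for AT4G17560 to 17.0% for AT3G54210. Taken as GFP-TIE1-15 over wild type, the log2 ratios had a median of -0.22, which is a fold of 0.859, against a median of 0.02 over all 5914 measured named genes. Ratios were taken on the scale of log2(signal + pseudocount), with a pseudocount of 10% of the array's trimmed mean signal, and a gene was measured where the brighter array reached a signal of 200.02. Of those 5914 genes, 47.4% had a ratio below 0 and 52.5% one above 0. None of the 9 was 2-fold lower or higher, a size passed by 1.94% of all measured named genes in the lower direction and by 1.17% in the higher. None passed a log2 ratio of 0.5 either, which 8.13% passed in the lower direction and 10.4% in the higher. The direction depended on the scale. Bacterial and phage spike-in RNAs, which are added to each hybridization, were also lower on the GFP-TIE1-15 array, in 11 of 12 probe sets and with a median log2 ratio of -0.22. The 12 are several probe sets each of a few control RNAs (BioB, BioC, BioD and Cre), so they are not separate checks. Being added at hybridization, the controls do not measure RNA per cell or per plant. When that array was rescaled so that the spike-ins were level, the median of the 9 genes was 0.01, with 6 genes above 0 and 3 below, and the median of all measured named genes moved to 0.24. Relative to that median of all genes the 9 lay at -0.24 on the deposited scale and at -0.23 on the spike-in scale. The part of array scaling in the lower signals was not tested further.

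**Figure D1:**
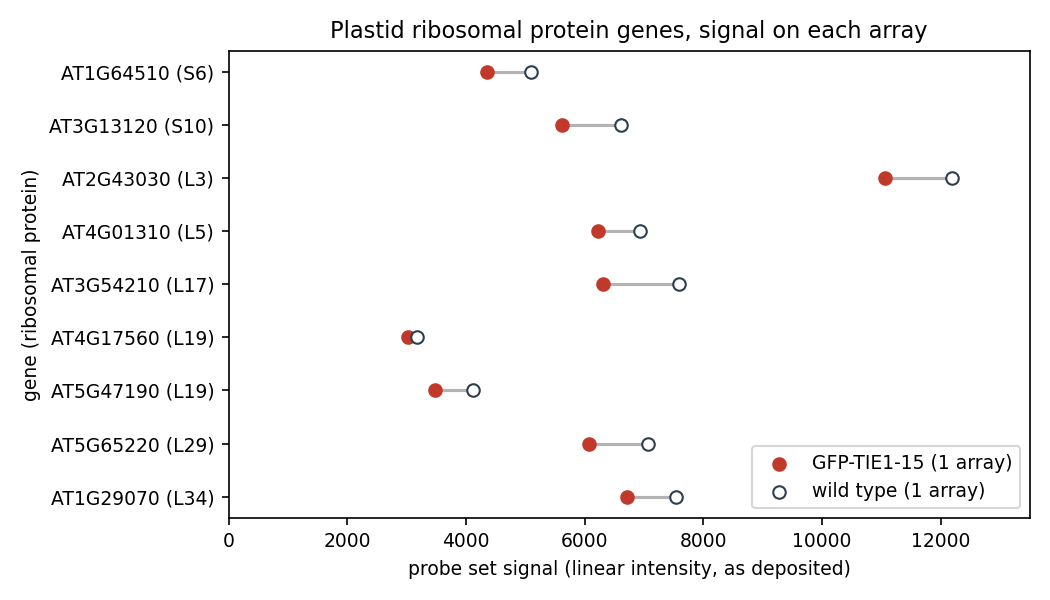
Signal of each of the 9 measured plastid ribosomal protein genes on the GFP-TIE1-15 array (filled points) and on the wild-type array (open points), on a linear intensity scale from 0, with 1 array per genotype. In each gene the GFP-TIE1-15 point lies left of the wild-type point, and the gap is smallest for AT4G17560, at 3025.8 against 3177.3.

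Both measured genes of the 30S subunit had nearly the same ratio. AT1G64510 encodes protein S6, which in Escherichia coli binds the platform of the small subunit together with S18, and it had a signal of 4358.2 in GFP-TIE1-15 and 5088.5 in wild type, a log2 ratio of -0.22. AT3G13120 encodes S10, a protein of the head of the small subunit in bacteria, and it had 5614.1 in GFP-TIE1-15 and 6611.1 in wild type, a log2 ratio of -0.23. The other 11 listed 30S loci had no named probe set, so these genes do not stand for the subunit. On the spike-in scale the pair was level, with log2 ratios of 0.01 for AT1G64510 and -0.01 for AT3G13120.

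The 7 measured genes of the 50S subunit had a median log2 ratio of -0.17 and a range from -0.27 to -0.07. AT2G43030 encodes L3, which in bacteria binds the large rRNA early in assembly and reaches toward the peptidyl transferase centre. Its signal was 11064 in GFP-TIE1-15 and 12195.5 in wild type, a log2 ratio of -0.14. AT4G01310 encodes L5, which binds 5S rRNA, and had 6229.2 in GFP-TIE1-15 and 6934.7 in wild type, a log2 ratio of -0.15. Both lay in the upper part of the range. AT3G54210 encodes L17, a protein near the exit of the peptide tunnel in bacteria, and it had the lowest ratio of the 9, with a signal of 6306.9 in GFP-TIE1-15 and 7594.8 in wild type and a log2 ratio of -0.27. AT5G65220 encodes L29, which also lies at the tunnel exit, and had 6068.7 in GFP-TIE1-15 and 7069.9 in wild type, a log2 ratio of -0.22. AT1G29070 encodes L34, a small basic protein that binds the large rRNA, and had 6711.9 in GFP-TIE1-15 and 7544.8 in wild type, a log2 ratio of -0.17.

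Protein L19, which in bacteria sits at the interface of the subunits, is encoded by 2 of the measured loci, and they differed in size of ratio. AT5G47190 had a signal of 3472.5 in GFP-TIE1-15 and 4117.8 in wild type, a log2 ratio of -0.24. AT4G17560 had 3025.8 in GFP-TIE1-15 and 3177.3 in wild type, a log2 ratio of -0.07, the one nearest to 0 among the 9. The difference between the loci, AT5G47190 minus AT4G17560, was -0.17 in log2 ratio. That is smaller in size than the spread of log2 ratios among probe sets of like signal, 0.33 for AT5G47190 and 0.31 for AT4G17560. It has no replicate check. Neither probe set is of a type that several genes can share, by the suffix of its name.

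The ratios of the 9 genes were close together compared with other genes of like signal. Their SD across genes was 0.06. The 377 measured named genes with a mean signal in the same range, the 9 included, had an SD of 0.45. Their robust SD was 0.37 around a median of 0.00. Of the 368 others, 71, or 19.3%, lay within the interval spanned by the 9. No member lay beyond 1 local SD, that is the spread of log2 ratios among the 500 probe sets nearest in mean signal, which was 0.29 to 0.37 for these genes. This spread is among genes on these arrays and is not the spread between plants. In the signal range, 49.9% of the genes were below 0. The range also held 67 cytosolic ribosomal protein genes, all above 0 and with an SD of 0.17. Without those and without the 9 themselves, 59.5% of 301 genes lay below 0, with a median of -0.06.

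**Figure D2:**
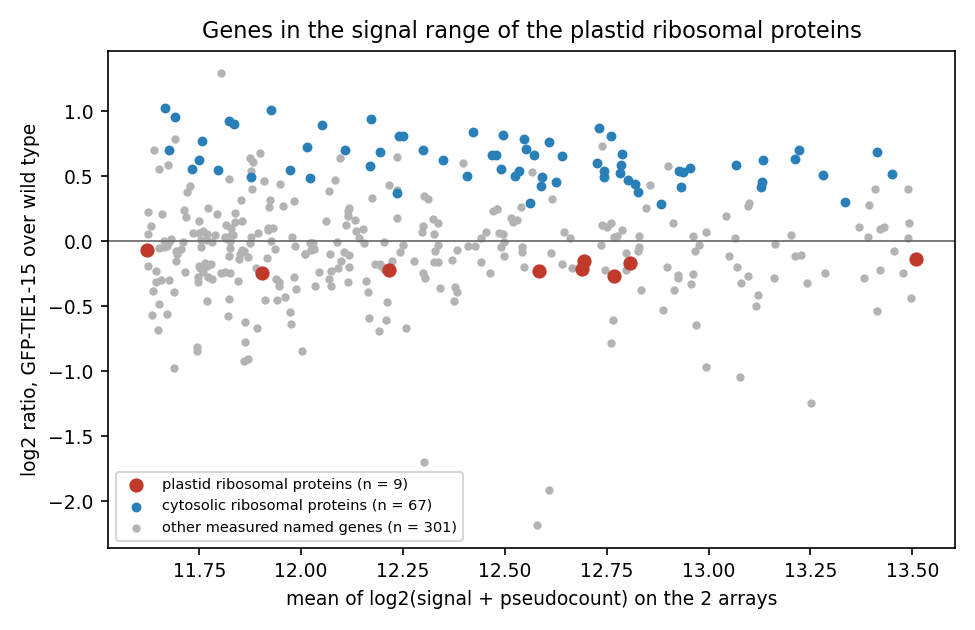
Log2 ratio (GFP-TIE1-15 over wild type) against the mean of log2(signal + pseudocount) on both arrays, for the 377 measured named genes within the signal range of the plastid ribosomal protein genes. The 9 plastid genes form a narrow band from -0.27 to -0.07, and the 67 cytosolic ribosomal protein genes all lie above 0.

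Cytosolic ribosomal proteins were set beside the plastid ones as the other large set of nuclear ribosomal protein genes. Every one of the 102 measured cytosolic genes had a log2 ratio above 0.27. Every measured plastid one was below 0, so the sets did not overlap. Over all 5914 measured named genes, 47.4% were below 0, and the 75th percentile of the log2 ratio was 0.24. The cytosolic 40S genes had a median log2 ratio of 0.61 over 40 genes and the 60S genes 0.66 over 62. That difference between the sets does not depend on a common scale factor, since it moves both alike. Within the signal range of the plastid genes the 67 cytosolic genes had a median of 0.60. No test of the difference between the sets was possible with 1 array per genotype.

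Ribosomal protein families that both compartments share were also set side by side. Of the measured plastid genes, 4 belong to families with a cytosolic member, and their median log2 ratio was -0.19. The 5 others encode proteins of families known from bacterial-type ribosomes and not from the cytosolic one, and their median was -0.22, within the spread of the 9. For 2 of the 4 families a cytosolic gene was also measured. In the S10 family, known as S20 in the cytosol, the plastid gene AT3G13120 was at -0.23, and the cytosolic gene AT3G47370 had 4553.7 in GFP-TIE1-15 and 2320.1 in wild type, a log2 ratio of 0.96. In the L29 family, known as L35 in the cytosol, the plastid gene AT5G65220 was at -0.22, and 4 cytosolic genes ran from 0.45 for AT3G55170 to 0.91 for AT2G39390. In these 5 pairs the plastid minus the cytosolic log2 ratio ran from -1.19 to -0.67. Since the full sets did not overlap, every such pair had to fall below 0, so the pairs add only sizes.

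The plastid ribosome also holds proteins encoded in the plastid genome, and the median of these was above 0. Of 25 listed plastid gene copies, 15 had a named probe set and all 15 were measured. Their median log2 ratio was 0.20, with 13 above 0 and 2 below, and none reached 0.5. Over all measured named genes 52.5% were above 0. The 15 may not all be separate measures, since rpl14 and rps19 gave almost the same signals. The transcript of rpl16, for a 50S protein, had 4458 in GFP-TIE1-15 and 3227.3 in wild type, a log2 ratio of 0.46, and that of rps18, for the 30S partner of S6, had 2542.8 in GFP-TIE1-15 and 2048 in wild type, a log2 ratio of 0.31. The lowest were rps14, with 164 in GFP-TIE1-15 and 207.4 in wild type (-0.27), and rpl36, with 6710.4 in GFP-TIE1-15 and 6841.3 in wild type (-0.03). The rps14 probe set was near the brightness minimum of 200.02 and passed it only on the wild-type array, so its ratio carries little weight. Nuclear and plastid genes of the same ribosome thus had ratios of opposite sign on the deposited scale, with 2 exceptions among the plastid genes. On the spike-in scale the medians were 0.42 for the plastid-encoded genes and 0.01 for the nuclear ones. Most plastid transcripts lack a stable poly(A) tail, which limits what an array signal shows of their amount.

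**Figure D3:**
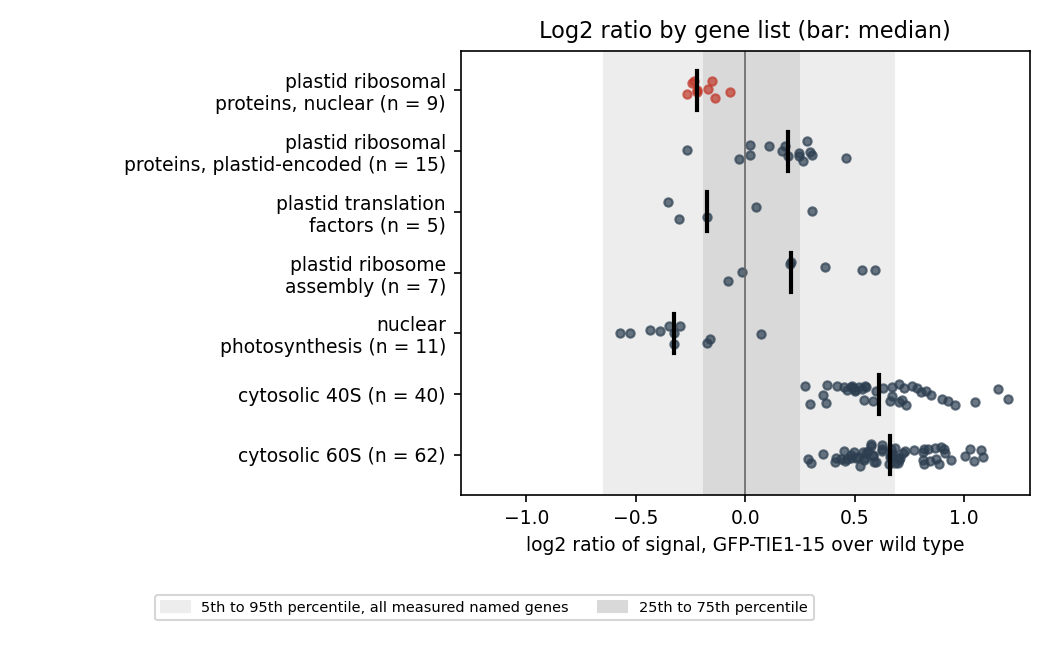
Log2 ratio (GFP-TIE1-15 over wild type) for each measured gene (points) in 7 gene lists, with the median of each list (bars) and percentile bands of all 5914 measured named genes. The 9 nuclear-encoded plastid ribosomal protein genes lie below 0 with a median of -0.22, the 15 plastid-encoded ones have a median of 0.20, and the cytosolic lists lie highest, at 0.61 and 0.66.

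Among genes that act on the plastid ribosome, translation factors and assembly factors had medians of different sign on the deposited scale. Few genes of either list were measured. Of 13 listed plastid translation factor genes, 5 were measured, 2 above 0 and 3 below, with a median log2 ratio of -0.17. Over all measured named genes 47.4% were below 0, so this count is not unusual. FUG1 (AT1G17220), the plastid initiation factor of the IF2 type, had 4660.9 in GFP-TIE1-15 and 5955.3 in wild type, a log2 ratio of -0.35. AT5G08650, which encodes an elongation factor of the LepA type, was at -0.30. At the other end, AT2G24060, for an initiation factor of the IF3 type, had 2037.9 in GFP-TIE1-15 and 1637 in wild type, a log2 ratio of 0.31, and AT4G11175, of the IF1 type, was at 0.05. On the spike-in scale the median of these 5 was 0.05 and that of the assembly genes was 0.43, so there both were above 0. None of the 5 passed the size of 0.5.

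Of 21 listed genes of plastid ribosome assembly and rRNA maturation, 7 were measured, 5 above 0 and 2 below, with a median log2 ratio of 0.21. Over all measured named genes 52.5% were above 0. PAC (AT2G48120), or PALE CRESS, which is needed for plastid rRNA processing and chloroplast development, had 547.9 in GFP-TIE1-15 and 346.9 in wild type, a log2 ratio of 0.59. RAP (AT2G31890), needed for trimming of plastid 16S rRNA, had 2123.7 in GFP-TIE1-15 and 1449.1 in wild type, a log2 ratio of 0.54. These were the 2 genes of the list that passed 0.5, a size that 10.4% of all measured named genes passed in the higher direction. AT5G46420, which encodes a protein of the RimM type, was at -0.08, and the DEAD-box helicase gene AT3G06980 was at -0.01. Of 20 listed plastid transcription genes, 1 had a named probe set, AT5G15700, and its signals of 147.6 in GFP-TIE1-15 and 85.6 in wild type were below the minimum. The 3 listed regulators of nuclear genes for plastid proteins had no named probe set.

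Nuclear photosynthesis genes, which mark green shoot tissue, were mostly lower in GFP-TIE1-15 on the deposited scale. Their median there lay further below 0 than that of the plastid ribosomal protein genes, a difference that could not be tested. After quantile normalization the medians were nearly equal, at -0.204 for the photosynthesis genes and -0.198 for the 9. Most of the photosynthesis genes were also brighter than all 9, so the lists were compared at unlike signal. Of 53 listed genes, 11 were measured, 10 below 0 and 1 above, with a median log2 ratio of -0.33 and 2 past -0.5. Over all measured named genes, 47.4% were below 0 and 8.13% passed that size in the lower direction. LHCB4.2 (AT3G08940), of the photosystem II antenna, had 10464 in GFP-TIE1-15 and 15555 in wild type, a log2 ratio of -0.57, and SBPASE (AT3G55800), of the Calvin cycle, had 6270.9 in GFP-TIE1-15 and 9055.9 in wild type, a log2 ratio of -0.53. ATPC1 (AT4G04640), a subunit of the plastid ATP synthase, was at -0.16, and LHCB4.3 (AT2G40100) at 0.07. On the spike-in scale the list's median was -0.10. Of 13 listed root markers, 3 had a named probe set. EXPA7 (AT1G12560) had 3.8 in GFP-TIE1-15 and 30.1 in wild type, and EXPA18 (AT1G62980) had 44.3 in GFP-TIE1-15 and 62.3 in wild type, all below the minimum. PYK10 (AT3G09260), a beta-glucosidase of root and seedling tissue, was measured, with 5954 in GFP-TIE1-15 and 6745.9 in wild type. The part of tissue makeup in the lower plastid ribosomal protein signals was not tested.

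**Figure D4:**
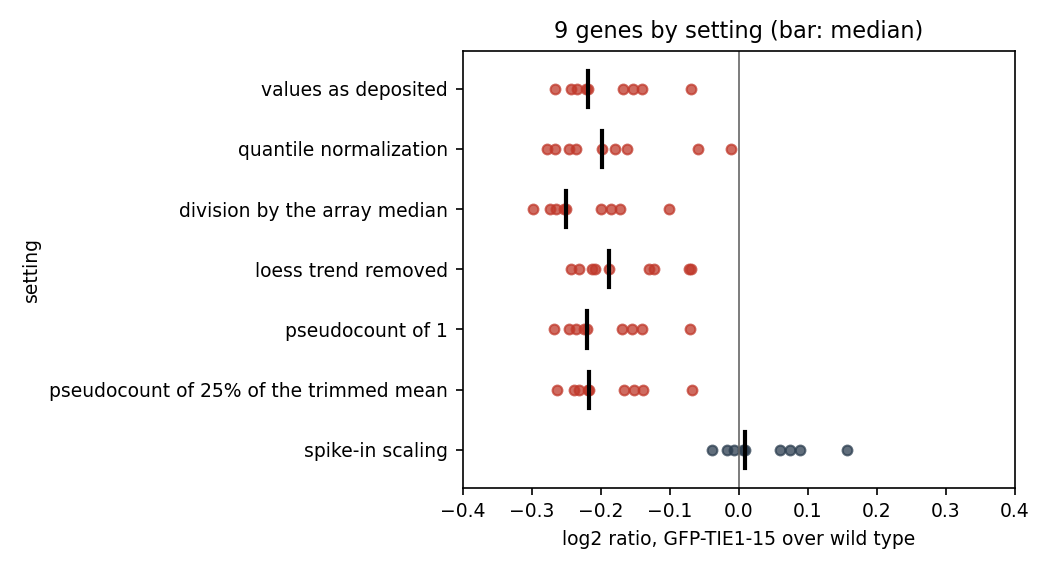
Log2 ratio, as GFP-TIE1-15 over wild type, for each of the 9 plastid ribosomal protein genes (points) and their median (bars), on the values as deposited and under 6 other settings of scaling or pseudocount. The 9 genes lie below 0 in each setting except the spike-in scaling, where they run from -0.04 to 0.16.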

How the data were processed

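The table deposited by the authors held 1 linear intensity per probe set and array, for 22810 probe sets, made with GCOS 1.0 and MAS5, per the submitters' processing notes. No source used here names the scaling target. Trimmed by 2% at either end, the mean signal was 500.05 on each array, so the arrays were taken as already scaled. The authors' intensity values were then put on a log2 scale. Probe sets were named through the platform annotation and the TAIR10.1 RefSeq gene table: 13436 matched 1 locus, 503 had several symbols and were left unnamed, and 8730 were unnamed. The pseudocount was 10% and the brightness minimum 40% of the trimmed mean. Probe sets of a gene were averaged on the log2 scale.

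Members and lists were chosen with earlier results of these data known. Lists came from general knowledge of the species. From the lists, 1 locus was dropped because its reference symbol contradicted the list, and 1 because the table did not hold it. All 9 measured members were named, and in other lists up to 4 genes, those with the 2 highest and 2 lowest ratios. The cytosolic counterparts of the shared families and the spike-in scaling were added after the values were seen. The number of arrays limits the precision of every value. Promoter motifs were not analysed here. Scripts were tested on simulated data. Python 3.11.15, numpy 2.4.6, pandas 2.3.3, statsmodels 0.14.6 and matplotlib 3.10.9 were used.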

Additional observations from a re-analysis of the deposited data

How the results depend on the processing

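Under the 8 listed alternatives (quantile normalization, division by the array median, removal of the loess trend, a pseudocount of 1, a pseudocount of 25% of the trimmed mean, a brightness minimum of 0 or of 100%, and removal of shared probe sets) all 72 ratios of the 9 plastid ribosomal protein genes lay below 0 and moved by less than the local SD. The local SD, 0.29 to 0.37, is larger than any of the 9 ratios in size. A move to 0 would thus also have passed, and that criterion says little about stability. The brightness minima and the removal of shared probe sets could not change these ratios, so they tested nothing. The median ran from -0.25 to -0.19, that of the 30S genes from -0.26 to -0.21 and that of the 50S genes from -0.20 to -0.13, their means included. No gene was 2-fold apart under any setting. AT4G17560 came closest to 0, at -0.01 after quantile normalization. The comparison lists kept the sign of their medians under the same alternatives, but sizes moved. The median of the nuclear photosynthesis genes ran from -0.36 to -0.20, which overlaps the range of the 9 genes. The spike-in scaling, added after the data were seen, was the exception. It gave a median of 0.0091 for the 9 genes and of 0.060 for the 50S genes, 6 genes above 0, and 0.048 for plastid translation factors. Single genes then had 0.060 for AT1G29070, 0.0059 for AT1G64510, 0.089 for AT2G43030, 0.074 for AT4G01310, 0.16 for AT4G17560 and 0.0091 for AT5G65220. The construction of that setting raises every ratio. No paired analysis was possible because there was a single array for either genotype. Signal over background limits only dim genes, and no detection calls were used.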

Other observations

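The probe sets of rpl14 and rps19 gave almost the same signals, with 6175 and 6175.7 in GFP-TIE1-15 and 5206.9 and 5206.5 in wild type. By locus number, rpl16, rps3 and rpl22 lie between them, with other signals of 4458, 8982.7 and 7108.6 in GFP-TIE1-15. Why rpl14 and rps19 were so alike was not tested, and both were counted among the 15 plastid-encoded genes. Within the signal range of the plastid ribosomal protein genes, 5 of 301 other genes were at least 2-fold lower and 1 was at least 2-fold higher, when the cytosolic ribosomal protein genes are left out.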
